A study of Mus musculus with 4 samples.

Results

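The Wnt ligands, their receptors and the secreted proteins that modulate them were examined in whole uteri of pregnant mice at E18.5. The members were the protein-coding genes whose GRCm38 symbol is Wnt, Fzd, Sfrp, Dkk or Rspo followed by a digit, together with Frzb, Wif1, Lrp5, Lrp6, Lgr4, Lgr5, Ror1, Ror2, Axin2, Znrf3 and Rnf43. This gave 52 of the 55421 genes counted, and the rule itself uses names and no measured value. The members comprised 19 Wnt ligands, 10 Frizzled receptors, 5 secreted Frizzled-related proteins, 4 Dickkopf genes and 4 R-spondins. The other 10 were the co-receptors Lrp5 and Lrp6, the R-spondin receptors Lgr4 and Lgr5, the receptors Ror1 and Ror2, Wif1 and the feedback inhibitors Axin2, Znrf3 and Rnf43.

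RNA from 2 WT mice (C57BL/6J) was compared with RNA from 2 Qa2- mice (B6.Cg-H2b3/FlaCmwJ, also called B6.K1), with 1 library for each uterus. Qa2- mice carry an H2 haplotype that arose in crosses of congenic strains and lacks the genes of the MHC class Ib antigen Qa-2. All mothers were young adults mated within their strain, so their fetuses lacked Qa-2 too in the Qa2- group, and no treatment is labelled. The strains came from different suppliers, so Qa-2, other variants of the strains and housing history cannot be told apart.

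Wnt proteins are lipid-modified secreted ligands that bind Frizzled receptors. With the co-receptors Lrp5 and Lrp6 they stabilize beta-catenin, while Ror receptors serve the branch that directs cell polarity and movement. R-spondins raise the number of receptors by drawing Znrf3 and Rnf43, which remove Frizzled proteins from the cell surface, to Lgr receptors. Secreted Frizzled-related proteins and Wif1 bind the ligands, and Dickkopf proteins act on the Lrp co-receptors. In the uterus the pathway is known for formation of glands, for decidualization and for patterning of the muscle layer, with ligands made in both epithelium and stroma.

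The libraries held between 33286390 and 41041299 counted read pairs, and both WT libraries were deeper. The Qa-2 gene H2-Q7 had 157.4 and 33.2 CPM in WT against 0.113 and 0.0572 CPM in Qa2- uteri, which matches the labels (CPM are counts relative to library sizes scaled by TMM, a normalization across libraries). Its level is uncertain because near-identical Qa-2 genes share reads, and the WT mice differed by 4.75 times. The 8 markers of uterine smooth muscle summed to between 15143 and 52872 TPM (counts divided by gene length and scaled to a common total). Trophoblast markers stood apart in WT replicate 2, at 30.9 TPM against 1.45 to 6.58 TPM in the others. Psg21 and Prl3b1 had 308 and 155 counts in that library and 0 in the others, and Gcm1 and Hand1 had 0 counts in every library. Yolk sac markers stood apart in Qa2- replicate 1, at 430.7 TPM against 6.88 to 38.5 TPM in the others. The contribution of these differences to the values below was not tested, and in whole tissue fewer cells of a type and less RNA per cell cannot be told apart.

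Of the 52 members, 34 had at least 1 CPM on library totals in at least 2 libraries and were tested with all other genes that passed, 14492 in total. Wnt10b passed only through its WT libraries and Fzd10 only through its Qa2- libraries, so that some difference was built into their inclusion, and the counts that follow are over the other 32. By edgeR's quasi-likelihood test 0 members had an adjusted p under 0.05 in either direction, against 0% of all genes, and the smallest adjusted p of a member was 0.246. At an unadjusted p under 0.05, 6 members were higher in WT (18.8%, against 8.09% of all genes) and 2 were higher in Qa2- uteri (6.25%, against 7.09%). DESeq2's Wald test gave an adjusted p under 0.05 to Sfrp4, Wnt9a and Rspo1, all higher in WT, where 2.79% of all genes were called, and to 0 of the 32 higher in Qa2- uteri, where 2.04% were called. Fzd10 passed the threshold of DESeq2, and an unadjusted p of 0.05 by edgeR, which is not read as a result because of how it was included. Both WT libraries lay above both Qa2- libraries for 10 members (31.2%), an order held by 25.4% of all genes, and the opposite order was found for 7 members (21.9%), against 24.5%. The latter share was near that of all genes, and neither share was tested against it. The shares over all genes include genes admitted through 1 group alone. Over all 34 tested members the log2 fold change, WT over Qa2-, had a median of 0.04, and over all genes tested it was 0.01. With 2 mice in a group, the smallest two-sided p that exact permutation of the libraries allows is 0.333. Without Qa2- replicate 2, 2 of the 34 tested members were higher in WT and 1 in Qa2- uteri at an unadjusted p under 0.05.

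**Figure D1:**
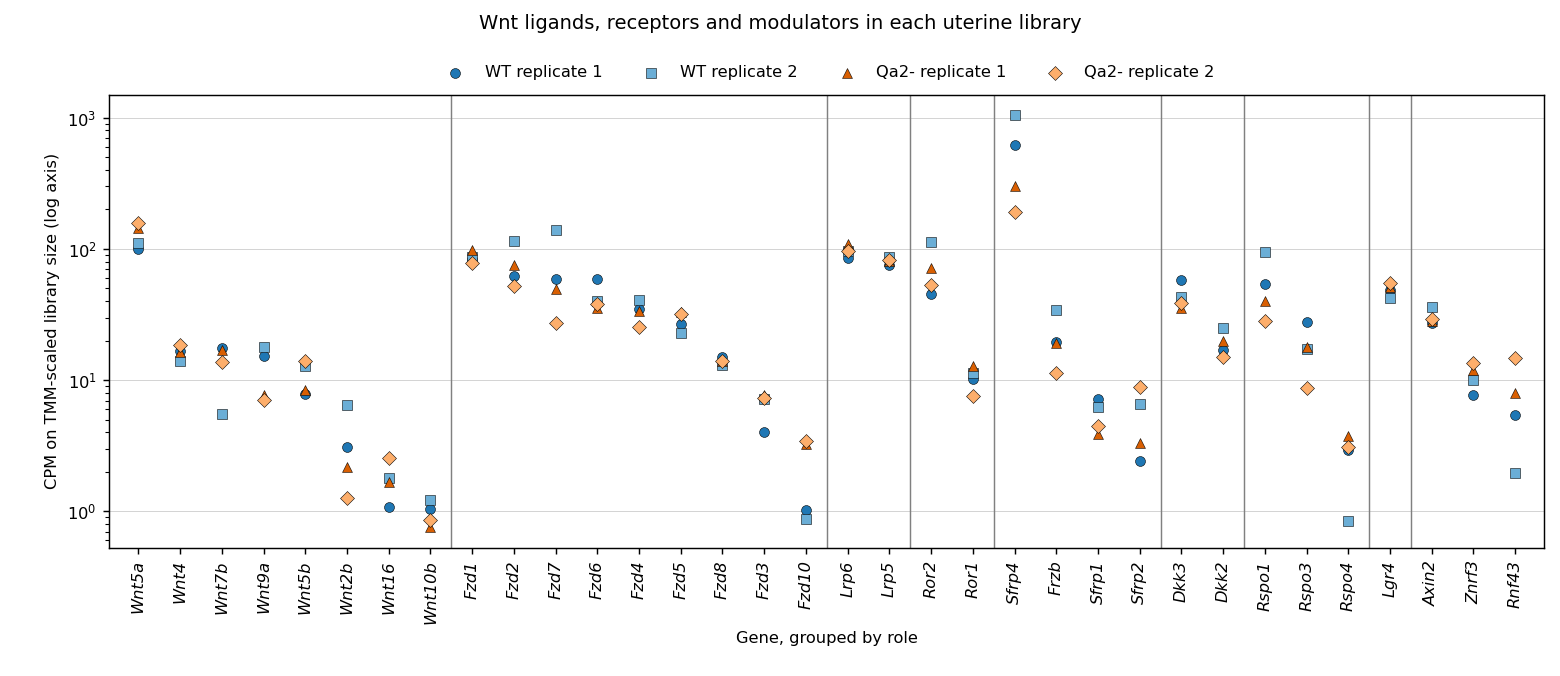
Normalized level of the 34 tested members in each library, in CPM on a log axis; each point is 1 library and the vertical lines separate the roles. Sfrp4 lies above every other member in all libraries, from 189.7 to 1045.3 CPM. Fzd10 and Wnt9a show the groups apart with little spread within them, and Fzd10, admitted by its Qa2- libraries alone, is shown as a description.

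Among the Wnt ligands, Wnt5a, which signals mainly through Ror receptors and the polarity branch, was the ligand with the highest level per length. It had 34.6 and 41.5 TPM in WT and 59.1 and 61.7 TPM in Qa2- uteri, which was between 41.6% and 43.9% of the summed TPM of all 19 ligands in WT and 55.1% and 56.0% in Qa2- uteri. On the CPM scale it had 99.1 and 110.3 in WT against 144.9 and 157.7 in Qa2- uteri. Both Qa2- libraries were higher, and the mice of each group differed by no more than 1.11 times. The log2 fold change was -0.53 (standard error, SE, 0.17, adjusted p = 0.290 by edgeR), a difference of 1.45 times, ranging from -0.62 to -0.47 when single libraries were dropped.

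The next ligands by level per length were Wnt5b, Wnt4, Wnt9a and Wnt7b, with means over the libraries between 8.21 and 12.1 TPM. Wnt4, which is needed for decidualization of the stroma, had 16.7 and 13.9 CPM in WT against 16.3 and 18.6 CPM in Qa2- uteri, so the groups overlapped. Its log2 fold change was -0.19 (SE 0.20). Wnt5b, the close relative of Wnt5a, had 7.90 and 12.9 CPM in WT against 8.37 and 13.9 CPM in Qa2- uteri. The mice of a group thus differed more than the groups did, and Wnt5b did not share the order of Wnt5a.

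Wnt9a, a ligand of the beta-catenin branch, had the smallest p among the tested ligands. It was at 15.2 and 18.0 CPM in WT and 7.69 and 7.03 CPM in Qa2- uteri. Its level in WT was 2.26 times that in Qa2- uteri, for a log2 fold change of 1.17 (SE 0.21, adjusted p = 0.246 by edgeR) and an adjusted p of 0.00236 by DESeq2. Leaving out any library kept the log2 fold change between 1.05 and 1.26. Wnt2b, a ligand of stroma and mesothelium, had 3.11 and 6.44 CPM in WT against 2.20 and 1.26 CPM in Qa2- uteri. The WT libraries were both higher but differed from each other by 2.07 times, and the log2 fold change was 1.46 (SE 0.51, adjusted p = 0.306 by edgeR) and 0.84 without WT replicate 2.

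Wnt7b, a ligand of epithelia, lay at 17.6 and 5.57 CPM in WT and at 17.1 and 13.7 CPM in Qa2- uteri. The low value belonged to WT replicate 2, and without it the log2 fold change turned from -0.41 to 0.19. Wnt16 and Wnt10b were the lowest tested ligands, between 1.07 and 2.57 CPM and between 0.761 and 1.22 CPM. Both WT libraries were higher for Wnt10b, at a log2 fold change of 0.48 (SE 0.40), whereas the groups overlapped for Wnt16.

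The remaining 11 ligands were below the filter. Wnt1, Wnt3a and Wnt8a had no count in any library, and Wnt10a, Wnt8b, Wnt3, Wnt7a and Wnt9b had at most 16 counts. A count of 0 allows up to 3 counts, or 0.0731 to 0.0901 CPM in these libraries, by counting error alone. Wnt6 had between 23 and 41 counts and Wnt11 between 9 and 21 counts. Wnt2, a stromal ligand related to Wnt2b, reached 40 and 29 counts in the WT libraries but 8 and 4 counts in the Qa2- libraries. In the fit without a filter its log2 fold change was 2.37 (SE 0.74, adjusted p = 0.223 by edgeR), and it was the member below the filter with the smallest p.

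The Frizzled receptors went in both directions, with a median log2 fold change of -0.01 over the 9 tested members. That median includes Fzd10, which was admitted by its Qa2- libraries alone. Fzd2, Fzd1 and Fzd7 had the highest levels per length, with means over the libraries of 62.2, 61.7 and 44.8 TPM. Fzd7, a main receptor of the beta-catenin branch in progenitor cells, had 59.4 and 138.9 CPM in WT against 49.5 and 27.3 CPM in Qa2- uteri. WT replicate 2 stood high, and WT replicate 1 lay close to Qa2- replicate 1. The log2 fold change was 1.37 (SE 0.49, adjusted p = 0.310 by edgeR) and was 0.63 without WT replicate 2.

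Fzd10, the receptor at the other end of the order, had 1.02 and 0.875 CPM in WT against 3.24 and 3.43 CPM in Qa2- uteri. These values stand for 41 and 33 counts in WT and 115 and 120 counts in Qa2- uteri. The mice of a group differed by at most 1.17 times and the groups by 3.52 times, which gave a log2 fold change of -1.81 (SE 0.35). Because its Qa2- libraries alone admitted it to the test, these values are a description, and its p is not read as a result. Without any 1 library it stayed between -1.95 and -1.71.

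Promoter sequences are shown for the receptor Fzd7 and the ligand Wnt9a, both of which had higher WT libraries. Each is the 250 bases before the RefSeq transcription start on GRCm38.p6, on the plus strand, with capitals for CTTTG, the core of the TCF/LEF motif through which beta-catenin acts, on either strand.
Fzd7, chr1:59481897-59482146: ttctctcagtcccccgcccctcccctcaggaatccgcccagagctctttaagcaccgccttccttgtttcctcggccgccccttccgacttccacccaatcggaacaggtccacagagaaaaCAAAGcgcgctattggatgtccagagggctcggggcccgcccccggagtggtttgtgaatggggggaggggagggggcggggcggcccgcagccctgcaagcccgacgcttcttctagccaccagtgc
Wnt9a, chr11:59306680-59306929: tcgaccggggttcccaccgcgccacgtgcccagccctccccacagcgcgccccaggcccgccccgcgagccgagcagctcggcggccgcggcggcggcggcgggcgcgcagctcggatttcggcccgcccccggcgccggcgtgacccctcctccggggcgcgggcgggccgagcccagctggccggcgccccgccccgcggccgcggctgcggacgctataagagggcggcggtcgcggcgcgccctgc
Fzd7 held 1 match, on the minus strand, at 128 bases before the start, and Wnt9a held none. The letters occurred in 48.6% of the 32851 promoters of the same length and in 42.1% of the 38 promoters found for 34 members. G and C made up 65.2% of the Fzd7 window and 84.4% of the Wnt9a window, where the median was 66.8% over the members' promoters and 52.4% over all promoters. These are descriptions of the windows, and a match is not a measured site.

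The other Frizzled receptors differed less. Fzd5, a receptor of the uterine epithelium, had 26.9 and 22.7 CPM in WT against 33.4 and 32.2 CPM in Qa2- uteri, so both Qa2- libraries were higher (log2 fold change -0.40, standard error 0.17, adjusted p = 0.345 by edgeR). Fzd4, the receptor for Norrin in endothelium, and Fzd6, a receptor of the polarity branch, had both WT libraries higher, with log2 fold changes of 0.35 (SE 0.21) and 0.43 (SE 0.22). Fzd1 and Fzd8 had log2 fold changes of -0.03 and -0.01 with overlapping groups. Fzd2 overlapped as well, from 62.5 and 114.7 CPM in WT to 76.0 and 52.4 CPM in Qa2- uteri. Fzd3 ran from 4.06 to 7.78 CPM, with both Qa2- libraries higher and WT replicate 1 low. Fzd9 had at most 9 counts in a library and was not tested.

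The co-receptors lay close together in all libraries. Lrp5 had 75.7 and 87.0 CPM in WT against 80.8 and 82.2 CPM in Qa2- uteri, a log2 fold change of -0.0025 (SE 0.16). Lrp6 had 85.3 and 97.2 CPM in WT against 108.4 and 96.7 CPM in Qa2- uteri, a log2 fold change of -0.17 (SE 0.17). In both genes the groups overlapped. Ror2, the receptor of Wnt5a, had 45.4 and 112.0 CPM in WT against 72.2 and 52.7 CPM in Qa2- uteri. The highest and the lowest library were both WT, and the log2 fold change of 0.33 (SE 0.45) turned to -0.46 without WT replicate 2. Ror1 overlapped between 7.58 and 12.9 CPM.

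**Figure D2:**
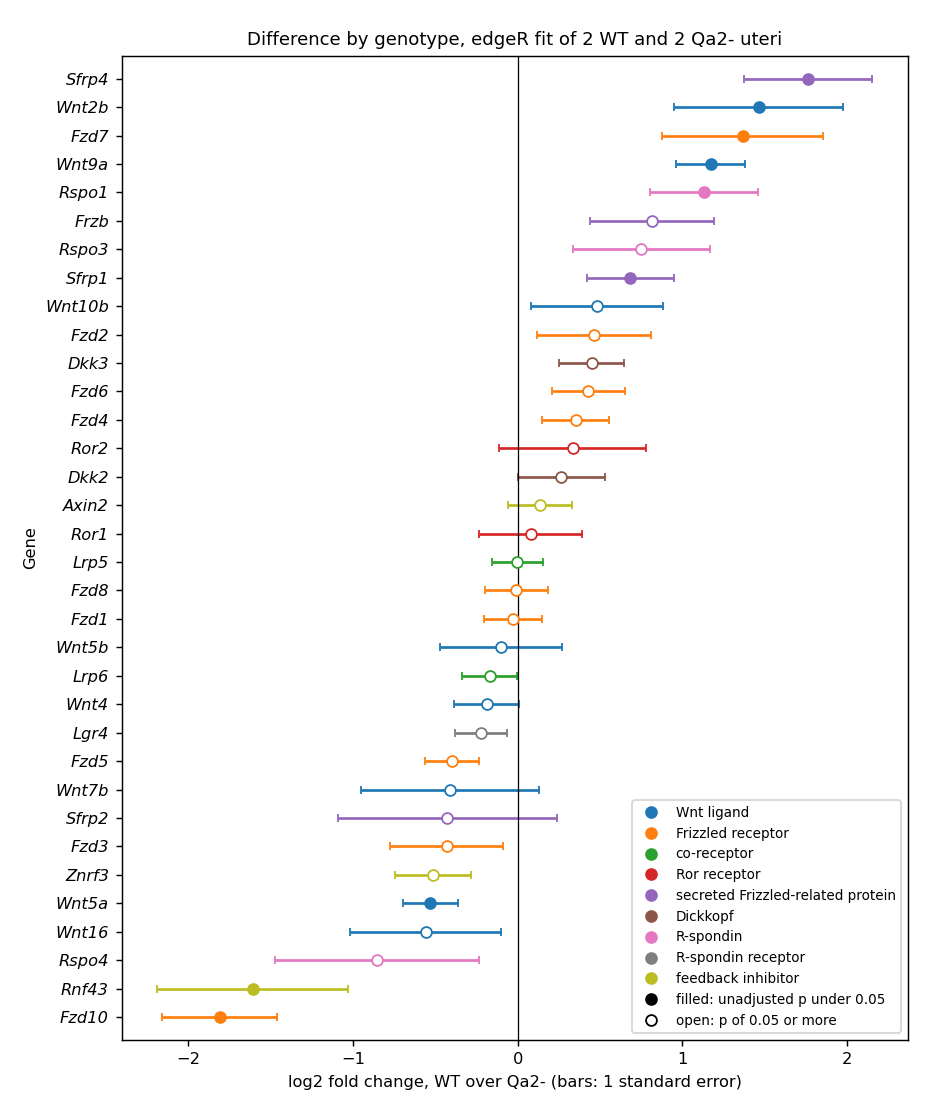
Log2 fold change of WT over Qa2- for the 34 tested members, with bars of 1 standard error from edgeR; colour gives the role and filled points have an unadjusted p under 0.05. Filled points run from Sfrp4 at 1.77 to Fzd10 at -1.81, and Fzd10, admitted by its Qa2- libraries alone, is shown as a description.

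Of all members, Sfrp4 had the highest level in every library. Its product binds Wnt ligands outside the cell and is abundant in uterine stroma. It took between 16.4% and 45.2% of all counts of the 52 members, and its level was 404.6 and 736.1 TPM in WT and 228.8 and 138.9 TPM in Qa2- uteri. On the CPM scale it had 618.9 and 1045.3 in WT against 299.8 and 189.7 in Qa2- uteri. Both WT libraries were higher, by 3.40 times in the mean, and the mice of a group differed by 1.69 and 1.58 times. The log2 fold change was 1.77 (SE 0.39, adjusted p = 0.246 by edgeR), with an adjusted p of 0.000230 by DESeq2. Dropping single libraries gave 1.34 to 2.13. Sfrp4 (ENSMUSG00000021319) lies on chromosome 13 of GRCm38 from 19623104 to 19632994.

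Frzb, also called Sfrp3, had 19.7 and 34.3 CPM in WT against 19.2 and 11.4 CPM in Qa2- uteri. WT replicate 1 and Qa2- replicate 1 were close, and the log2 fold change of 0.82 had a SE of 0.38 (adjusted p = 0.377 by edgeR). Sfrp1 was lower in level but even within the groups, with 7.12 and 6.28 CPM in WT against 3.86 and 4.49 CPM in Qa2- uteri. Its log2 fold change was 0.68 (SE 0.26, adjusted p = 0.323 by edgeR). Sfrp2, another inhibitor of stroma, had 2.44 and 6.60 CPM in WT against 3.30 and 8.86 CPM in Qa2- uteri. Replicate 2 was the higher in each group, and the groups overlapped. Sfrp5 was below the filter, with 106 counts in WT replicate 1 and 13 to 20 counts in the others.

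The Dickkopf genes were represented by Dkk3 and Dkk2. Dkk3, a divergent member that does not bind the Lrp co-receptors as Dkk1 does, had 58.2 and 43.1 CPM in WT against 35.6 and 38.6 CPM in Qa2- uteri. Both WT libraries were higher, at a log2 fold change of 0.45 (SE 0.20, adjusted p = 0.362 by edgeR). Dkk2 ran from 14.9 to 24.8 CPM with overlapping groups. Dkk1, an inhibitor known from the decidua, had 3 counts in Qa2- replicate 1 and 0 in the others, and Dkk4 and Wif1 had no count.

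The R-spondins, which strengthen Wnt signals, were led by Rspo1, with a mean of 83.0 TPM over the libraries. Rspo1 had 54.2 and 95.5 CPM in WT against 39.9 and 28.5 CPM in Qa2- uteri. Both WT libraries were higher, by 2.19 times in the mean, for a log2 fold change of 1.13 (SE 0.33, adjusted p = 0.275 by edgeR) and an adjusted p of 0.0444 by DESeq2. It was 0.66 without WT replicate 2. Rspo3, an R-spondin of blood vessels and stroma, had 27.8 and 17.3 CPM in WT against 18.0 and 8.75 CPM in Qa2- uteri. The groups overlapped, and the log2 fold change was 0.75 (SE 0.42) and 1.37 without Qa2- replicate 1. Rspo4 was low, with 0.848 CPM in WT replicate 2 and 2.91 to 3.75 CPM in the others, and Rspo2 had no count. The log2 fold change of Rspo4 was -0.86 (SE 0.62), -2.03 without WT replicate 1 and -0.23 without WT replicate 2. Lgr4, the R-spondin receptor, had 48.7 and 42.4 CPM in WT against 50.9 and 55.4 CPM in Qa2- uteri, a log2 fold change of -0.22 (SE 0.16). Lgr5, a stem cell marker of many epithelia, had at most 9 counts in a library.

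Axin2, Znrf3 and Rnf43 are induced by beta-catenin signalling and dampen it, and Axin2 is the usual readout of that branch. Axin2 had 27.1 and 36.2 CPM in WT against 28.1 and 29.4 CPM in Qa2- uteri. The groups overlapped, and the log2 fold change was 0.14 (SE 0.20, adjusted p = 0.768 by edgeR). Znrf3 had 7.77 and 9.97 CPM in WT against 11.9 and 13.4 CPM in Qa2- uteri, and its log2 fold change was -0.52 (SE 0.23, adjusted p = 0.368 by edgeR). Rnf43, the relative of Znrf3, had 5.46 and 1.96 CPM in WT against 7.97 and 14.7 CPM in Qa2- uteri. Both Qa2- libraries were higher, although the mice of a group differed by 2.78 and 1.85 times. The log2 fold change was -1.61 (SE 0.58, adjusted p = 0.310 by edgeR) and, when left without WT replicate 1 or 2, -2.56 or -1.06. The readout Axin2 and the ligase genes Znrf3 and Rnf43 therefore differed in order, the former overlapping and the latter both higher in Qa2- libraries.

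The other genes of the pathway were taken from 6 lists with 92 different genes, of which 77 were tested. At an unadjusted p under 0.05, 4 of them were higher in WT and 7 in Qa2- uteri, which is 5.19% and 9.09% of those tested against 8.09% and 7.09% of all genes. By edgeR 0 had an adjusted p under 0.05. By DESeq2 Cthrc1 and Ccn5 were called higher in WT (2.60%, against 2.79% of all genes), and Porcn, Bcl9, Msx1, Celsr1 and Celsr2 higher in Qa2- uteri (6.49%, against 2.04%), with adjusted p from 0.00239 for Ccn5 to 0.0448 for Celsr1. Their median log2 fold change was -0.07. Without Qa2- replicate 2, 2 were higher in WT and 3 in Qa2- uteri at an unadjusted p under 0.05, and those higher in WT numbered 8 without WT replicate 1 and 2 without WT replicate 2.

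In ligand secretion, Porcn, the enzyme that attaches the lipid to Wnt proteins, had 15.8 and 16.3 CPM in WT against 32.3 and 25.7 CPM in Qa2- uteri. Its log2 fold change was -0.85 (SE 0.18, adjusted p = 0.246 by edgeR). Wls, which carries the ligands to the cell surface, overlapped between 138.6 and 171.8 CPM. Among the other cell-surface and secreted proteins, Cthrc1, a matrix protein that binds Wnt and Frizzled proteins, had 12.2 and 6.65 CPM in WT against 3.55 and 1.60 CPM in Qa2- uteri, a log2 fold change of 1.87 (SE 0.51), and 2.55 without Qa2- replicate 1. The glypican genes Gpc4 and Gpc3 went in opposite directions, with log2 fold changes of 1.07 and -0.80. For Gpc4 both WT libraries were higher and for Gpc3 both Qa2- libraries.

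The cytoplasmic core held 21 tested genes, and by edgeR 0 had an unadjusted p under 0.05, against 8.09% of all genes higher in WT and 7.09% higher in Qa2- uteri. By DESeq2 0 had an adjusted p under 0.05. Both Qa2- libraries were higher for 9 of the 21 (42.9%, against 24.5% of all genes) and both WT libraries for 0 (against 25.4%). Of the 21, 18 had a negative log2 fold change, against 7092 of the 14492 genes tested. The values ran from -0.86 for Frat2, which binds the kinase GSK3, to 0.15 for Apc2, a relative of the scaffold gene Apc. Of 15 tested nuclear genes, Bcl9, a co-activator that binds beta-catenin, had 55.5 and 51.0 CPM in WT against 90.9 and 138.7 CPM in Qa2- uteri, a log2 fold change of -1.11 (SE 0.24, adjusted p = 0.246 by edgeR). The co-repressor gene Aes had 313.9 and 323.9 CPM in WT against 225.0 and 221.2 CPM in Qa2- uteri. Groups did not overlap in either gene.

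Of 16 tested target genes, 1 was higher in WT (6.25%, against 8.09% of all genes) and 2 were higher in Qa2- uteri (12.5%, against 7.09%) at an unadjusted p under 0.05. Both WT libraries were higher for 2 of them (12.5%, against 25.4%) and both Qa2- libraries for 6 (37.5%, against 24.5%). Ccn5, a matricellular gene formerly named Wisp2, had 5.83 and 5.75 CPM in WT against 2.11 and 1.52 CPM in Qa2- uteri. The homeobox gene Msx1 had 5.63 and 4.93 CPM in WT against 9.66 and 13.7 CPM in Qa2- uteri. The receptor gene Tnfrsf19 had 10.7 and 4.85 CPM in WT against 15.5 and 25.3 CPM in Qa2- uteri, a log2 fold change of -1.39 (SE 0.46), and -2.10 without WT replicate 1. In planar cell polarity, the cadherin genes Celsr1 and Celsr2 had log2 fold changes of -0.95 and -1.61, and Celsr2 leaned on Qa2- replicate 2, at 42.3 CPM against 14.0 CPM in Qa2- replicate 1. Without that library it was -0.60, and without Qa2- replicate 1 it was -2.20.

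**Figure D3:**
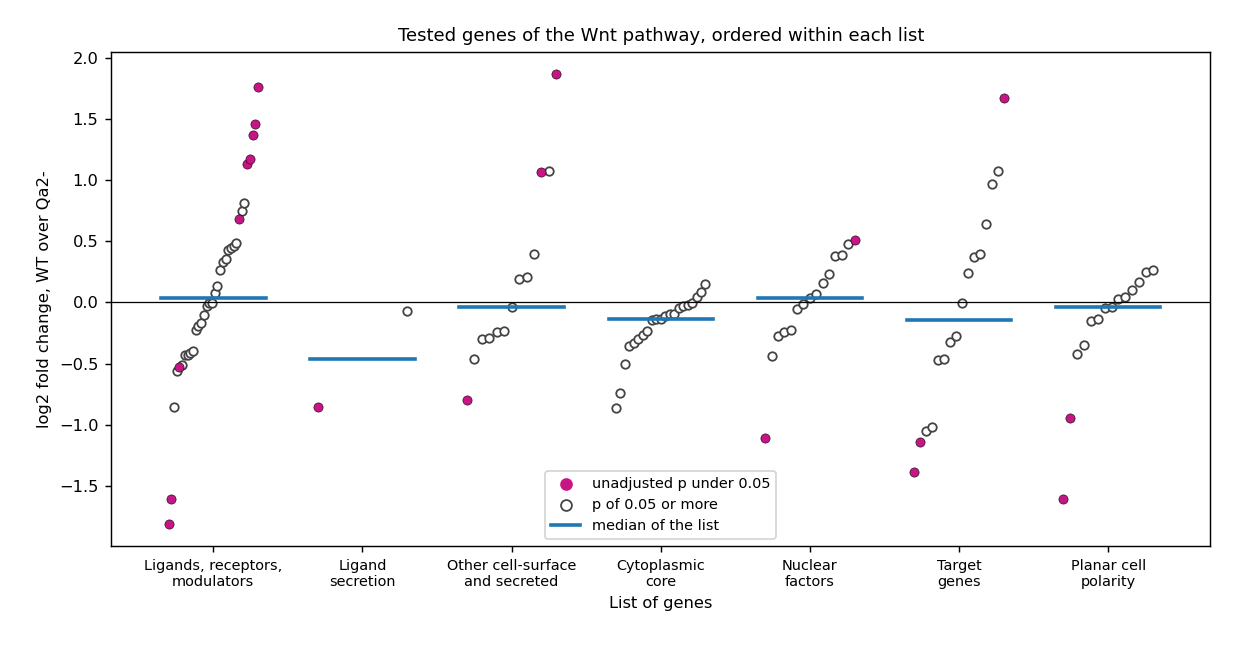
Log2 fold change of WT over Qa2- for each tested gene of the ligands, receptors and modulators (34 genes) and of 6 further lists of the pathway, ordered within a list; filled points have an unadjusted p under 0.05 and the bar is the list's median. Medians lie between -0.46 and 0.04, and the cytoplasmic core has no filled point.

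Cell type markers varied between the same libraries. Smooth muscle markers summed to 29880 and 52872 TPM in WT against 29447 and 15143 TPM in Qa2- uteri, with WT replicate 2 highest and Qa2- replicate 2 lowest in 7 of 8 genes. Endothelial markers summed to 761.4 and 624.2 TPM in WT against 323.9 and 292.6 TPM, with 6 of 6 genes higher in both WT libraries (100%, against 25.4% of all genes). All 5 mesothelial markers were higher in both WT libraries (100%, against 25.4%), with sums of 64.2 and 55.9 TPM against 22.3 and 11.8 TPM. Among them, Lrrn4, Upk1b and Nkain4 passed the filter only through their WT libraries, so some of that order was built in. The stromal sum overlapped, from 7071 and 12295 TPM in WT to 13336 and 6813 TPM, and was carried by the collagen genes Col1a1 and Col1a2. Of the 8 stromal genes, Dcn, Vim, Lum and Hand2 had both WT libraries higher (50%, against 25.4% of all genes) and Pdgfra had both Qa2- libraries higher. Epithelial markers summed to 6226 and 3778 TPM in WT against 7301 and 11727 TPM in Qa2- uteri. Of 12 genes, 6 were higher in both Qa2- libraries (50%, against 24.5%), including Foxa2, which passed the filter only through its Qa2- libraries. Ltf gave 4374 TPM of that sum in Qa2- replicate 2 and 383.0 TPM in Qa2- replicate 1. Leukocyte markers summed to 264.4 and 313.8 TPM in WT against 251.3 and 188.0 TPM in Qa2- uteri, so both WT libraries were higher, although of the 4 tested genes 1 had that order and 1 the opposite order.

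The order with WT replicate 2 highest and Qa2- replicate 2 lowest, looked at after the values were seen, was held by Dkk2, Frzb, Fzd2, Fzd4, Fzd7, Rspo1, Sfrp4, Wnt2b and Wnt9a (9 of the 34 tested members, against 2318 of the 14492 genes). The reverse order was held by Lgr4, Rnf43 and Wnt4, and by Fzd10, whose inclusion rests on its Qa2- libraries. This was 4 of the 34 tested members (11.8%), against 2203 of the 14492 genes (15.2%). Members were also set against the markers within each library. Per 1000 TPM of smooth muscle markers, Sfrp4 had 13.5 and 13.9 TPM in WT against 7.77 and 9.17 TPM in Qa2- uteri, so both WT libraries were still higher, as they were for Wnt2b. For Fzd7, Rspo1, Wnt9a and Sfrp1 the groups overlapped on this scale. Per 1000 TPM of stromal markers, a sum carried by the collagen genes, Sfrp4 had 57.2 and 59.9 TPM in WT against 17.2 and 20.4 TPM in Qa2- uteri. Wnt2b, Fzd7, Wnt9a and Rspo1 also had both WT libraries higher on that scale, and Sfrp1 overlapped. Col1a1 and Col1a2 overlapped between the groups, whereas Dcn, Vim, Lum and Hand2 had both WT libraries higher. Ratios on the stromal scale therefore depend on the collagen genes. Against endothelial markers 5 of these 6 members overlapped and Sfrp1 had both Qa2- libraries higher. Against mesothelial markers Wnt9a, Rspo1 and Sfrp1 had both Qa2- libraries higher, and the other 3 overlapped. In the Qa2- libraries Msln made up 19.2 and 9.48 TPM of the mesothelial sums of 22.3 and 11.8 TPM, so these ratios lean on that gene. Per 1000 TPM of epithelial markers, Rnf43 had 0.365 and 0.233 TPM in WT against 0.531 and 0.586 TPM in Qa2- uteri. The epithelial sum includes Ltf, which was uneven between the Qa2- libraries. Both Qa2- libraries were still higher for Rnf43, whereas Wnt5a overlapped. Rnf43 and Wnt5a were set against no other marker list. The contribution of cell composition to the members' differences was not tested beyond these ratios.

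**Figure D4:**
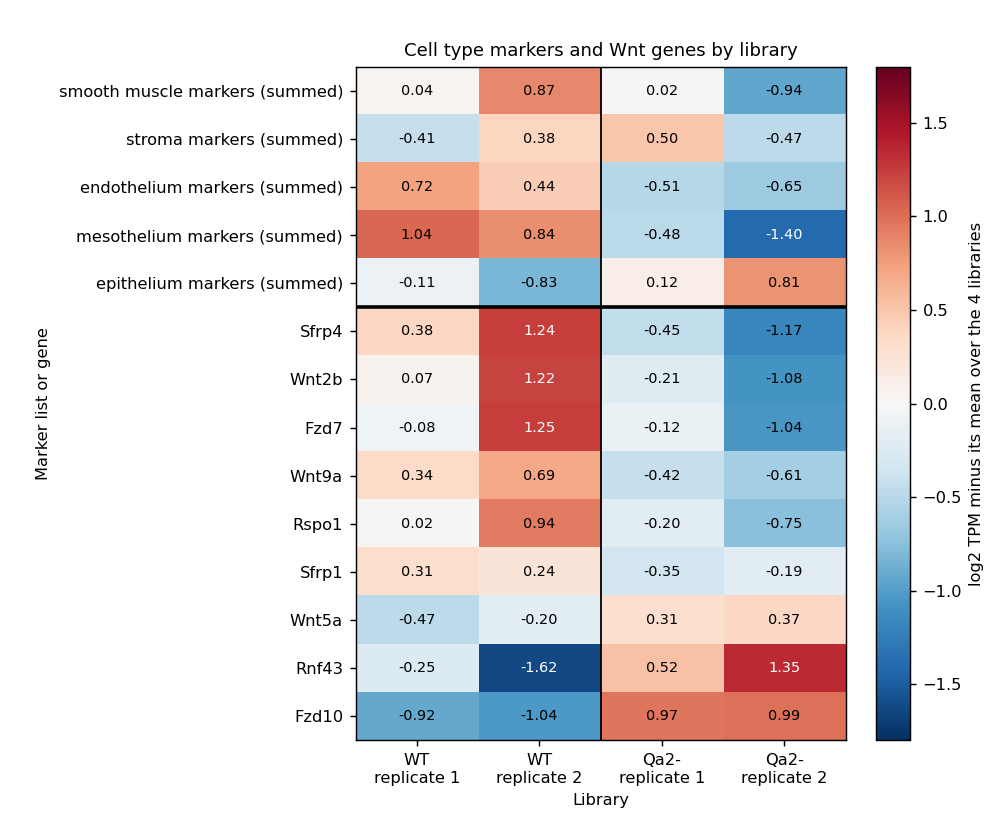
Level of the marker lists (summed TPM) and of 9 members (TPM), Fzd10 and the 8 others with an unadjusted p under 0.05, in each library, as log2 minus the mean over the 4 libraries; red is above and blue below that mean. Sfrp4, Wnt2b, Fzd7, Wnt9a and Rspo1 share their highest and lowest library with the smooth muscle markers, and Rnf43 shares its own with the epithelial markers.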

How the data were processed

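Uteri had been snap-frozen, RNA was prepared with an RNeasy kit, and poly(A)-enriched strand-specific libraries were sequenced in read pairs. The authors deposited raw counts of read pairs per gene. Per the file headers these are from featureCounts 2.0.0 on a GRCm38 annotation, for pairs on the reverse strand whose ends were both aligned, at a minimum mapping quality of 3, and the submitters' processing notes name STAR 2.7.3a. Pairs that fitted several places or genes were not counted, which lowers genes with close copies.

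Symbols were taken from GENCODE M21, in which all 52 members have the start and end of the files. Genes with at least 1 CPM, from library totals, in at least 2 libraries were kept. The study states this minimum, but it left fewer genes here than the study gives, for reasons not known. Since no test for the transcriptome is named in the methods, edgeR 4.0.16 (TMM, glmQLFit and glmQLFTest with defaults, R 4.3.3) was used, with Benjamini-Hochberg adjustment over 14492 genes. The standard error is the log2 fold change divided by the square root of F. CPM in the report are on TMM-scaled library sizes (factors 0.957 to 1.05). TPM were computed from the counts and the gene lengths in the files. The replicates are uteri of 2 mice in each group, per the labels and the study's description. Libraries of a group differed by more than sampling noise (206.7 and 129.8 chi-square per gene). The edgeR step was tested on simulated counts with known fold changes. Same-numbered libraries had a correlation of deviations of -0.37. With 2 libraries in a group this cannot show whether the numbers pair mice, and no batch is labelled. The alternatives were DESeq2 1.42.0, upper-quartile factors, library totals, dropping the filter, requiring 10 counts in every sample, a replicate block and omitting each library.

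The members, the pathway and marker lists and the tests were chosen with earlier results of these data known. All members are accounted for. Of the pathway lists, the text names genes with an unadjusted p under 0.05, and otherwise the 2 at each end of a list by log2 fold change. Of the marker lists it names at most 4 genes with the largest mean CPM, and Gcm1 and Hand1 for their counts of 0. Psg21 and Prl3b1 are named for their counts in WT replicate 2, and Lrrn4, Upk1b, Nkain4 and Foxa2 for how they passed the filter. Of the cytoplasmic list only the ends of its range are named, and Lum, Pdgfra and Hand2 were named after their values were seen. The library orders and the ratios to markers were chosen after their values were seen. Promoters are from RefSeq (GRCm38.p6).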

Additional observations from a re-analysis of the deposited data

How the results depend on the processing

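Of 495 log2 fold changes of named genes under the alternatives, 465 kept their direction and their side of the threshold, 11 passed an adjusted p of 0.05 and 19 turned in sign, in 11 of 45 genes. By DESeq2 3 members were called higher in WT and 1, Fzd10, in Qa2- uteri, and counts of members here include Fzd10 and Wnt10b. The number of members with an unadjusted p under 0.05 was 5 higher in Qa2- uteri with library totals alone. For the other pathway genes it was 2 higher in WT and 11 in Qa2- uteri with library totals alone, and 7 higher in WT with no filter on low counts. With a replicate block 4 members were higher in WT and 2 in Qa2- uteri at an unadjusted p under 0.05, with 0 called, and other pathway genes gave 2 and 6. The crossed pairing, chosen after seeing the data, gave 10 and 4 members and 11 and 14 other genes.

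Leaving out each library in turn gave 2 to 8 members higher in WT and 1 to 4 in Qa2- uteri at an unadjusted p under 0.05, and 2 to 8 and 3 to 10 other pathway genes. The lone library left in a group is then assumed to vary like the other group. Log2 fold changes that turned in sign ran from -0.043 to 0.81 for Fzd2, from -0.46 to 0.82 for Ror2, from -0.036 to 0.49 for Dkk2, from -0.091 to 0.30 for Axin2, from -0.25 to 0.52 for Ror1 and from -0.11 to 0.066 for Lrp5. They ran from -0.14 to 0.091 for Fzd8, from -0.18 to 0.14 for Fzd1, from -0.50 to 0.31 for Wnt5b, from -1.49 to 0.19 for Wnt7b and from -1.32 to 0.45 for Sfrp2. Ror1 was also -0.0092 with library totals alone. Lrp5 was 0.0044 with upper-quartile factors, 0.0097 with no filter and 0.000975 with at least 10 counts in every sample, and Fzd8 was 0.0068 with no filter. The cause was not tested in any of these. The median of the members lay between -0.05 and 0.06 under the other settings and between -0.05 and 0.12 with a library left out. With 2 mice in a group the spread is estimated poorly, and members with few counts, such as Wnt10b and Fzd10, have the least depth.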
